A study of Homo sapiens with 65 samples.

Results

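The libraries described here are the HAS2 knockout and wild-type left ventricular cardioids collected at day 4.5 of differentiation, 6 of each, out of 65 libraries in the series. They were chosen by sample title, with no measured value used. Cardioids are self-organising heart tissue models grown from pluripotent stem cells, and the series profiled them by RNA-seq across days 1.5, 2.5, 4.5 and 7.5 with HAS2 knocked out or with hyaluronidase added, in order to follow what hyaluronan does in them. Every culture came from WTC-11, a human induced pluripotent stem cell line, and each library pooled 8 cardioids.

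The wild-type libraries carried the line names WT (2 libraries), WT_TU (2), cl43_WT_UT (1) and TNT2 (1), and the knockout libraries came from the HAS2-KO clones cl4 (3), cl14 (1), cl46 (1) and cl51 (1). Both genotypes went through the same left ventricular protocol: mesoderm induction from day 0 with FGF2, the PI3K inhibitor LY294002, activin A, BMP4 and the GSK3 inhibitor CHIR99021, then reseeding and patterning with BMP4, FGF2, insulin, the WNT inhibitor C59 and retinoic acid. By day 4.5 the cultures were in a later patterning medium. The design of the HAS2 edit and what the suffixes TU and UT mean were not given in the sources used here. Because several libraries share a clone or line, the p-values measure the spread between libraries, which is not the spread between independent clones.

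Hyaluronan is a long unbranched sugar polymer that HAS2, a synthase of the plasma membrane, extrudes into the space around cells. In the embryonic heart it fills the cardiac jelly between myocardium and endocardium, where it binds versican and link proteins and holds water, and mice without Has2 fail to form cardiac jelly and cushions. During the same period cardiac progenitors switch on sarcomere genes, become contractile and assemble an epithelium-like wall.

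The day 4.5 libraries held 1404837 to 3201280 counts each, and 13797 genes passed the filter on low counts. The labels' library numbers form 3 runs, called blocks here: R1 (WT_R1, WT_TU_R1, cl4_R1), R2 (WT_R2, WT_TU_R2, cl4_R2) and the third (cl43_WT_UT, TNT2, cl4_R3, cl14_R1, cl46_R1, cl51_R1). Whether a block was an RNA extraction or a sequencing run was not given. WT_R1 and WT_TU_R1 stood apart from the other 10 libraries on the first principal component, which held 42.4% of the variance (−97.5 and −100.2, the others −6.15 to 41.001). The share of counts from mitochondrially encoded genes followed the block, at 0.118% and 0.135% in these libraries, 0.170% in cl4_R1 and 0.257% to 0.548% in the other 9. Of the 111 named genes that passed, 52 were not called without the 3 libraries of block R1.

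HAS2 (ENSG00000170961; chromosome 8, 121612116 to 121641390, minus strand, GRCh38) was still transcribed in the knockout libraries. The wild-type libraries read 149.6 to 482 CPM (median 369) and the knockout libraries 286 to 485 CPM (median 319), where CPM is counts per 1000000, scaled by library. The ranges overlapped, and the log2 fold change of knockout over wild type was −0.01 ± 0.27 (SE; adjusted p = 0.992, 95% interval −0.55 to 0.54). Reads from the 3′ end of a transcript can survive an edit of its coding part, so this level does not check the genotype label.

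Among the 7 of 12 genes for hyaluronan synthesis and breakdown that were measurable, none changed in edgeR or in DESeq2 (1 had an unadjusted p under 0.05, GUSB, which passed with block as a covariate, −0.67 ± 0.18, adjusted p = 0.0179), with a median log2 fold change of −0.12 beside −0.03 over all genes. Of all 13797 genes tested, 2631 had an unadjusted p under 0.05. The matrix partners of hyaluronan did not pass either, apart from ACAN. VCAN, the large proteoglycan that binds hyaluronan in cardiac jelly, read 918 to 2898 CPM (median 2093) in wild type and 2665 to 3119.9 CPM (median 2931) in the knockout (0.54 ± 0.28, adjusted p = 0.293), and the link protein gene HAPLN1 read 161 to 649 CPM (median 316) and 276 to 643 CPM (median 460.04) (0.36 ± 0.30, adjusted p = 0.523). CD44, the main hyaluronan receptor, stayed at or under 1.30 CPM in every library of both groups. The aggrecan gene ACAN, at 2.88 to 16.3 CPM (median 7.13) against 0 to 4.89 CPM (median 1.12), was the single member of 9 that passed (−2.31 ± 0.63, adjusted p = 0.0316), and leaving out any of 6 libraries (cl4_R1, WT_R2, cl4_R3, cl14_R1, cl46_R1 and cl51_R1) put its adjusted p at 0.0512 to 0.0845.

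Across all genes, 516 of 13797 (3.74%) differed between knockout and wild type at an adjusted p under 0.05 in edgeR's quasi-likelihood test. Of these, 359 (2.6% of genes tested) were lower in the knockout and 157 (1.14%) were higher. The lower genes had a median change of 1.12 on the log2 scale and 57 of them changed by 4-fold or more, against a median of 1.40 and 44 genes among the higher set. In 336 genes (2.44%) the 6 knockout and 6 wild-type libraries did not overlap at all, 164 of them lower (1.19%) and 172 higher (1.25%), and these included 121 of the genes called lower and 67 of those called higher. With block as a covariate 829 genes passed, 511 lower and 318 higher, 497 of the 516 among them. Calls fell to 178 without the 3 libraries of block R1 and to 64 when counts were summed into 4 lines per genotype. Leaving out WT_R1 or cl51_R1 left 241 calls each, WT_TU_R1 277, cl14_R1 327, cl46_R1 266 and cl4_R3 314, and leaving out cl43_WT_UT raised the number to 899.

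**Figure D1:**
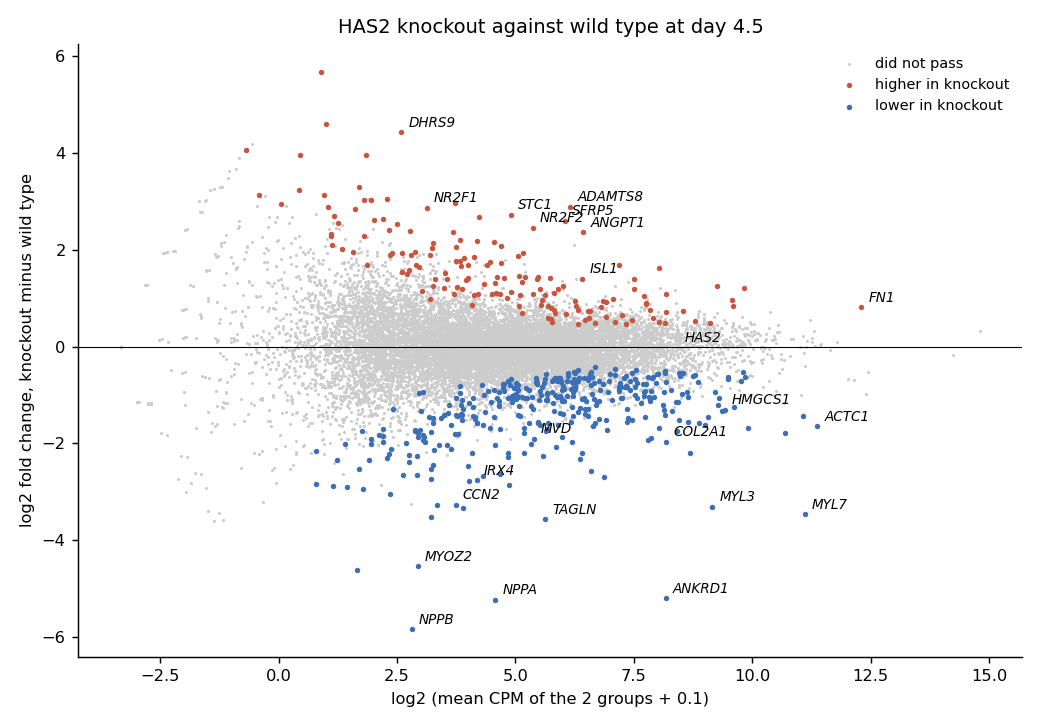
Log2 fold change of knockout over wild type at day 4.5 (vertical axis) against log2 of mean CPM plus 0.1 (horizontal axis), 1 point per gene tested, with genes called lower in blue and higher in red. The 359 genes called lower include the abundant genes MYL7, MYL3 and ANKRD1 far below 0, and HAS2 lies on the line at 0.

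Many sarcomere genes fell in the knockout, from the thick filament to the Z-disc, while TTN, MYH6 and TNNT2 did not pass. Of the thick filament list, 5 of 10 measured genes fell and none rose, with all 10 fold changes negative and a median of −1.42. Of the thin filament list 3 of 13 fell (median −0.66), and of the Z-disc and intermediate filament list 7 of 22 fell (median −1.23), again with none higher. DESeq2 called 5, 4 and 8 lower in these lists and also none higher, and in edgeR 8, 7 and 14 had an unadjusted p under 0.05 in either direction. Across all genes 2.6% were called lower and the median was −0.03. Of the 13797 genes, 2631 had an unadjusted p under 0.05 in either direction and 7187 had a negative fold change. The lists, here and below, were chosen with earlier results of these data known, so their totals do not measure an enrichment. In bulk RNA, fewer muscle cells and less muscle RNA per cell cannot be told apart.

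MYL7, the atrial-type regulatory light chain that the whole early heart tube expresses, read 1693 to 5466 CPM (median 4325) in the wild-type libraries and 99.1 to 789 CPM (median 372) in the knockout libraries. The groups did not overlap. The level was 11.0-fold lower in the knockout (log2 −3.45 ± 0.42, adjusted p = 9.55e-07). MYL3, the ventricular essential light chain, read 214 to 1574 CPM (median 1125) against 11.6 to 281 CPM (median 73.7), with cl43_WT_UT, at 214 CPM, the one wild-type library inside the knockout range (−3.30 ± 0.50, adjusted p = 5.67e-05). MYBPC3 and MYOM1, which bind and align the myosin filaments, changed by −1.34 ± 0.28 (adjusted p = 0.00367) and −1.56 ± 0.39 (adjusted p = 0.0152). MYH7, the beta myosin heavy chain, was at only 11.9 to 47.4 CPM (median 24.2) in wild type and 4.05 to 12.1 CPM (median 9.92) in the knockout (−1.501 ± 0.37, adjusted p = 0.0251). The adjusted p of MYOM1 rose to 0.0506 without cl51_R1, and that of MYH7 to 0.0542 to 0.0742 on leaving out WT_TU_R2, cl46_R1, cl51_R1 and TNT2 in turn.

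MYH6, the alpha myosin heavy chain, read 4602 to 8599.6 CPM (median 7201) in wild type and 1141 to 5785 CPM (median 4349) in the knockout. Its lowest knockout value came from cl51_R1, the lowest wild-type value from cl43_WT_UT, and the ranges overlapped (−0.98 ± 0.35, adjusted p = 0.106). TNNT2, cardiac troponin T, read 3505 to 6586 CPM (median 5203) against 1806 to 5108 CPM (median 3366) (−0.66 ± 0.32, adjusted p = 0.256, 95% interval −1.32 to −0.01). Reads of TNNT2 can overlap LAD1 on the same strand. TTN, titin, the spring that spans the sarcomere, read 3459 and 3527 CPM in WT_R1 and WT_TU_R1, 21834 to 34626 CPM in the other 4 wild-type libraries and 11277 to 26981 CPM (median 18875) in the knockout (−0.18 ± 0.57, adjusted p = 0.892). None of the 3 genes was called with all 12 libraries, and MYH6 passed without clone cl4 (−1.68, adjusted p = 0.0244).

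Among the thin filament genes that passed, ACTC1, cardiac actin, had a median of 3761 CPM in wild type and 1541 CPM in the knockout (−1.65 ± 0.39, adjusted p = 0.00969). TNNC1, the calcium sensor of troponin, went from a median of 388 to 106 CPM (−1.68 ± 0.43, adjusted p = 0.0176), with adjusted p = 0.0561 without WT_TU_R2 and 0.0506 without cl51_R1. TMOD1, the cap of the pointed end of the actin filament, differed by −1.40 ± 0.31 (adjusted p = 0.00648). In wild type, cl43_WT_UT was the lowest library for ACTC1 and TNNC1, with ACTC1 at 1520.05 CPM and TNNC1 at 182 CPM.

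The Z-disc is where neighbouring sarcomeres join and where actin filaments are anchored. MYOZ2, which ties alpha-actinin to calcineurin, read 7.51 to 23.2 CPM (median 13.2) in wild type and at most 1.83 CPM in the knockout. Every knockout library was below every wild-type library, and because the knockout was at or under the floor of 3 counts per library the change is given as at least 8.02-fold lower (adjusted p = 1.19e-04). SYNPO2L, an actin-associated Z-disc protein, read 211 to 464 CPM (median 348) against 40.0 to 159 CPM (median 88.5), also without overlap (−1.92 ± 0.32, adjusted p = 1.59e-04). XIRP1, SMPX, HSPB7 and ACTN2 fell by 1.89, 1.73, 1.63 and 1.47 on the log2 scale (adjusted p = 0.00332, 0.00641, 0.0104 and 0.012). ACTN2 lost its call without cl51_R1 (adjusted p = 0.0501). DES, the muscle intermediate filament, was low in both groups and did not pass (−2.11 ± 0.66, adjusted p = 0.0624). Of these lists, 5 thick, 1 thin and 7 Z-disc genes passed without block R1, 12 Z-disc genes without cl43_WT_UT, and 1 thick, 0 thin and 2 Z-disc genes with counts summed by line.

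**Figure D2:**
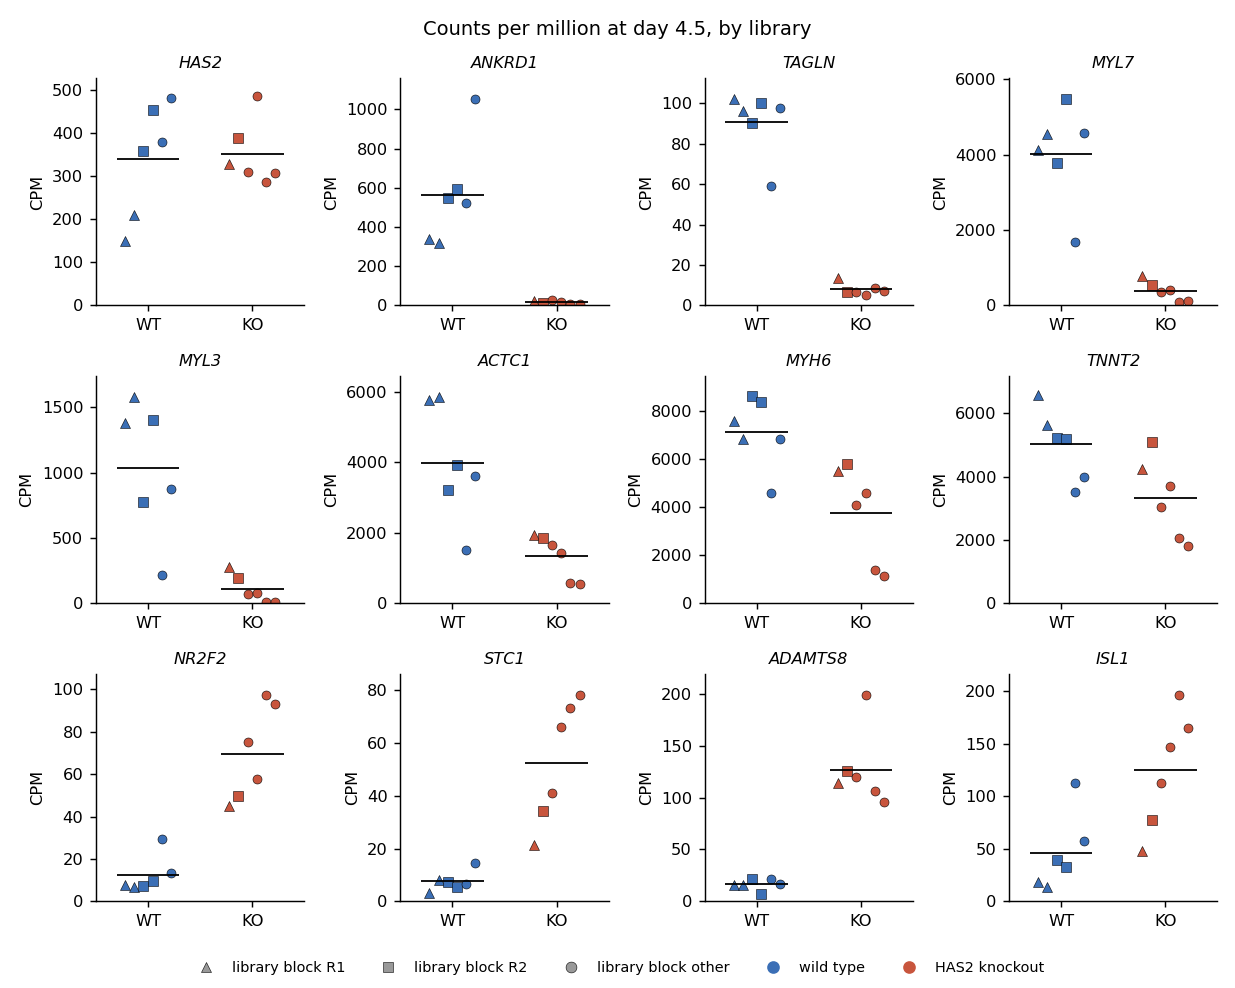
CPM (vertical axis, linear) of 12 genes in each of the 12 day 4.5 libraries, 1 panel per gene, with wild type in blue, knockout in red, marker shapes for the blocks and lines at the group means. ANKRD1, TAGLN and MYL7 do not overlap between the genotypes, whereas HAS2 and TNNT2 do.

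Outside these lists, genes for membrane, adhesion and quality control proteins stood among the 15 lowest by fold. POPDC2, a cAMP-binding membrane protein of cardiomyocytes, read 19.8 to 61.4 CPM (median 55.6) against 0.539 to 17.3 CPM (median 6.32) (−2.85 ± 0.48, adjusted p = 1.88e-04), with no overlap between groups. FBXL22, an F-box protein found at the cardiac Z-disc but on none of the lists, went from a median of 20.5 to 0.915 CPM (−3.28 ± 0.63, adjusted p = 0.00117). LIMS2, an adaptor of integrin adhesions, and DUSP13, a dual-specificity phosphatase, fell by 2.73 and 2.77 on the log2 scale (adjusted p = 0.00303 and 8.20e-04), and LIMS2 was not called without block R1 (adjusted p = 0.121). DERL3, which helps remove misfolded proteins from the endoplasmic reticulum, did not overlap at 11.9 to 44.6 CPM (median 26.5) against 0.672 to 4.89 CPM (median 3.16) (−3.34 ± 0.48, adjusted p = 1.77e-05). UNC5B-AS1, antisense to UNC5B, was also among the lowest (−3.52 ± 0.64, adjusted p = 5.61e-04), although the strand setting of the counting was not given and its reads cannot be told apart from those of its partner.

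The natriuretic peptide genes, which encode hormones of heart muscle, were among the lowest genes by fold. NPPB read 3.30 to 38.5 CPM (median 8.62) in wild type and at most 0.579 CPM in the knockout, with every knockout library at or under the floor, so that it was at least 7.55-fold lower (adjusted p = 0.0016). NPPA read 0 to 169 CPM (median 26.3) against 0 to 4.57 CPM (median 0.692), and cl43_WT_UT, at 0, put the groups in overlap (−5.22 ± 0.86, adjusted p = 1.22e-04). CORIN, the protease that processes the NPPA product, fell by 2.65 on the log2 scale (adjusted p = 0.0105, and 0.0897 without WT_TU_R1). In all, 3 of 7 measured genes of this list fell and none rose (median −0.25). Within the blocks, NPPA averaged 102 CPM in wild type and 4.57 in the knockout in R1, 28.0 and 1.22 in R2, and 8.66 and 0.346 in the third. The knockout average was lower in all 3, although the wild-type level itself differed between them. In the third block cl43_WT_UT was at 0, so the wild-type average there came from TNT2 alone. R1 and R2 held 1 knockout library each.

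Few calcium handling and ion channel genes passed. Of 15 calcium handling genes 2 fell and none rose (median −0.42), namely PLN, the inhibitor of the sarcoplasmic calcium pump (−1.12 ± 0.29, adjusted p = 0.0268), and CACNA1C, the pore of the L-type calcium channel (−1.01 ± 0.27, adjusted p = 0.0286). RYR2, the calcium release channel, read 417 to 1137 CPM (median 884) against 501 to 1222 CPM (median 855) (−0.0048 ± 0.37, adjusted p = 0.999), and the pump gene ATP2A2 did not pass either (−0.36 ± 0.29, adjusted p = 0.5). Of 14 ion channel genes 3 were lower and 1 was higher. KCNJ5, a potassium channel of atrial and nodal cells, fell by 1.68 on the log2 scale (adjusted p = 0.00408), and the calls of KCNH2 (−1.06 ± 0.30, adjusted p = 0.0396), HCN4, the pacemaker channel (−2.70 ± 0.74, adjusted p = 0.0311), and CACNA1D, which was higher (1.051 ± 0.29, adjusted p = 0.0334), were weaker. HCN4 read 325 and 706 CPM in WT_R1 and WT_TU_R1 against a wild-type median of 63.9, and was not called with block as a covariate (adjusted p = 0.0645). Without block R1 none of the 2 calcium genes or 3 lower channel genes passed. Leaving out single libraries gave adjusted p values of 0.0619 to 0.0854 for PLN (WT_R1, WT_TU_R1, cl4_R3, cl14_R1, cl46_R1 and cl51_R1), 0.0506 to 0.0864 for CACNA1C (WT_R1, WT_R2, cl4_R3, cl14_R1 and cl51_R1), 0.0724 to 0.222 for HCN4 (WT_R1, WT_TU_R1, cl4_R3, cl14_R1, cl46_R1 and cl51_R1), 0.0542 to 0.13 for KCNH2 (WT_R1, WT_TU_R1, WT_TU_R2, cl4_R3, cl14_R1, cl46_R1 and cl51_R1) and 0.0548 to 0.108 for CACNA1D (WT_R1, WT_TU_R1, cl4_R1, cl4_R2, cl4_R3 and cl14_R1).

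The promoters of 3 of the genes with the lowest fold changes, ANKRD1, CCN2 and MYL7, are shown as a description only. They come from RefSeq (GRCh38.p14), run from 250 bases before to 50 after the transcript start, and are printed 5′ to 3′ on the gene's strand. In ANKRD1 (chr10:90921038-90921337, minus strand) and CCN2 (chr6:131951323-131951622, minus strand) the capitals mark GGAATG, the core of the motif that TEAD factors bind with their partner YAP, and in MYL7 (chr7:44141283-44141582, minus strand) they mark the CArG box, the motif of serum response factor.
ANKRD1: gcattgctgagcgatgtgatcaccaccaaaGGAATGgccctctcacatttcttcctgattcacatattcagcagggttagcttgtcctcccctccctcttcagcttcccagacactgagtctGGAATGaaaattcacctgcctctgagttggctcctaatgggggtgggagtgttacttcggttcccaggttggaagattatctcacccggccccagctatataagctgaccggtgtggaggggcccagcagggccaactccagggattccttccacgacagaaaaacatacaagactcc
CCN2: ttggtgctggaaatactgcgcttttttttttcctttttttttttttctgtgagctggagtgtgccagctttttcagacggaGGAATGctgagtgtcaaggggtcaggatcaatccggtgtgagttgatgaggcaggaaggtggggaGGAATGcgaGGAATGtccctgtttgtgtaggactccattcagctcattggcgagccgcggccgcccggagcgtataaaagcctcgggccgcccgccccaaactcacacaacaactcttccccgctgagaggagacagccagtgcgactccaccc
MYL7: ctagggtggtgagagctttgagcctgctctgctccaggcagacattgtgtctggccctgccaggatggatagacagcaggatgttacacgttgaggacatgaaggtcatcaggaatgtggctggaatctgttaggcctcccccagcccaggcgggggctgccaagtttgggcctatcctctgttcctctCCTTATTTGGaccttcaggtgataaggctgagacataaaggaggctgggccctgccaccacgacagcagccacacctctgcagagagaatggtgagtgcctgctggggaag

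Searched on both strands, GGAATG occurred 2 times in the ANKRD1 promoter, 3 times in that of CCN2 and 1 time in that of MYL7, and it occurred in 14.03% of all 35116 promoters of this length. AGATAA, which GATA factors bind, occurred 1 time in ANKRD1 and in 10.33% of promoters, and the CArG box 1 time in MYL7 and in 1.29%. Counted by gene over all promoters of each, the shares were 16.73%, 12.44% and 1.6% of 27305 genes. Of the 15 genes named for the lowest fold changes, 10 had a promoter entry (16 promoters), and GGAATG was in 5 of them (ANKRD1, CCN2, FBXL22, IRX4 and MYL7), the CArG box in 2 (FBXL22 and MYL7) and AGATAA in 1. Of the 15 with the highest fold changes, 11 had an entry (20 promoters), with GGAATG in 2 (FLRT3 and KIAA2012), AGATAA in 2 (CTNNA2 and DHRS9) and the CArG box in 1 (NR2F1). A match describes these letters and is not a measured binding site.

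ANKRD1, a cardiac ankyrin repeat protein that sits in the sarcomere and shuttles to the nucleus, showed one of the clearest differences in these libraries. It read 321 to 1050.1 CPM (median 536) in wild type and 7.53 to 28.2 CPM (median 13.6) in the knockout. The lowest wild-type library was above every knockout library, and the level was 36.6-fold lower in the knockout (log2 −5.20 ± 0.52, adjusted p = 1.03e-08). CCN2, a secreted matricellular protein and common YAP target, read 4.38 to 55.0 CPM (median 11.9) against 0 to 9.14 CPM (median 1.41) (−3.26 ± 0.66, adjusted p = 0.00208), with overlap. CCN1, its relative, did not pass, at 0 to 48.9 CPM (median 2.84) against 0 to 12.7 CPM (median 1.20) (−2.17 ± 0.83, adjusted p = 0.138).

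The YAP target list as a whole did not move in one direction. Of 20 measured members 2 fell (ANKRD1 and CCN2) and 1 rose, 7 of the 20 fold changes were negative (7187 of 13797 over all genes), and the median was 0.21. IGFBP3, a carrier of insulin-like growth factors, was the member that rose, reading 10.00 to 36.3 CPM (median 22.3) against 50.4 to 109 CPM (median 58.1) (1.44 ± 0.35, adjusted p = 0.0134), and its call was lost without WT_R1 or cl51_R1 (adjusted p = 0.0533 to 0.0692).

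Several genes of the contractile cytoskeleton controlled by serum response factor fell as well. Of 19 measured, 7 fell, none rose, 17 had a negative fold change and the median was −0.70. Among all 13797 genes, 359 fell, 7187 had a negative fold change and the median was −0.03. TAGLN, an actin-binding protein of smooth and early cardiac muscle, read 59.3 to 102 CPM (median 97.0) in wild type and 4.98 to 13.7 CPM (median 6.84) in the knockout. These ranges were far apart, an 11.8-fold difference (log2 −3.56 ± 0.34, adjusted p = 3.49e-09). MYL9, the regulatory light chain of non-muscle and smooth muscle myosin, read 377 to 676 CPM (median 530.02) against 73.8 to 254 CPM (median 155) (−1.74 ± 0.28, adjusted p = 8.91e-05), and MYLK, the kinase that phosphorylates it, fell by 1.43 on the log2 scale (adjusted p = 8.20e-04), both with no overlap between groups. FHL2, a LIM protein of cardiac muscle, and CNN1, calponin, changed by −2.08 ± 0.46 and −1.46 ± 0.31 (adjusted p = 0.00575 and 0.00377). ACTA2, the smooth muscle actin of early cardiomyocytes, differed by −1.62 ± 0.40 (adjusted p = 0.014, and 0.0542 without cl51_R1), and MYH9, non-muscle myosin, by −0.67 ± 0.16 (adjusted p = 0.0123, and 0.0765 without WT_R1). Reads of TAGLN can overlap PCSK7, and those of ACTA2 can overlap FAS and STAMBPL1, on the other strand. In this list 4 genes passed without block R1 and 2 with counts summed by line.

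Core cardiac transcription factors were present in both genotypes. Their presence does not tell the labelled cell type, cardiac progenitor, apart from cardiomyocytes, because sarcomere genes such as MYH6, TNNT2 and MYL7 were also abundant in wild type. TBX5, which patterns the left ventricle and atria, read 166 to 342 CPM (median 203) in wild type and 176 to 303 CPM (median 240.2) in the knockout (−0.01 ± 0.29, adjusted p = 0.99). GATA4, a core cardiac factor, read 155 to 599 CPM (median 220.4) and 183 to 285 CPM (median 255) (−0.42 ± 0.31, adjusted p = 0.471). NKX2-5, the early cardiac homeobox factor, did not pass (−1.34 ± 0.55, adjusted p = 0.169), and its wild-type range of 359 to 2169 CPM (median 476) was set by WT_R1 and WT_TU_R1, at 2169 and 1904 CPM, beside 359 to 484 CPM in the other 4. The knockout libraries read 242 to 646 CPM (median 408).

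Within this list of 18 factors, 3 fell and 3 rose. HAND1, a factor of the left ventricle, read 285 to 711 CPM (median 366) against 115 to 233 CPM (median 158), with no overlap (−1.41 ± 0.31, adjusted p = 0.00596), while HAND2, its relative of the right ventricle and second heart field, rose, reading 120.2 to 185 CPM (median 137) against 199.8 to 339 CPM (median 322), also with no overlap (0.89 ± 0.22, adjusted p = 0.0159). IRX4, a ventricular homeobox factor, fell by 2.76 on the log2 scale (adjusted p = 0.00973, and 0.0854 without WT_R1), and SMYD1, a muscle methyltransferase, by 1.52 (adjusted p = 0.013, and 0.0522 to 0.0652 without WT_R1 or WT_TU_R1). ISL1, a marker of second heart field progenitors, read 13.3 to 113 CPM (median 36.1) against 48.2 to 197 CPM (median 130.1) (1.40 ± 0.35, adjusted p = 0.0157), and MEF2C, an activator of muscle genes, read 325 to 662 CPM (median 543) against 727 to 1232 CPM (median 1082), without overlap (0.96 ± 0.28, adjusted p = 0.0431). ISL1 was lost on leaving out WT_R1, WT_TU_R1, cl46_R1 and cl51_R1 in turn (adjusted p = 0.0502 to 0.0632) and MEF2C on leaving out any of 10 libraries (0.0523 to 0.129; all but cl43_WT_UT and cl51_R1). Without block R1 none of the 6 factors passed, HAND1 at an adjusted p of 0.147 and HAND2 at 0.0889.

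NR2F2 and NR2F1, nuclear receptors that direct atrial identity and respond to retinoic acid, were both higher in the knockout. NR2F2 read 6.84 to 29.7 CPM (median 8.60) in wild type and 45.2 to 97.5 CPM (median 66.4) in the knockout. The groups were apart and the level was 5.47-fold higher (log2 2.45 ± 0.41, adjusted p = 1.77e-04), and it stayed called without block R1 (adjusted p = 0.00576) and with counts summed by line (0.0232). NR2F1 was low, at 0 to 5.20 CPM (median 1.77) against 4.70 to 35.0 CPM (median 7.63) (2.87 ± 0.66, adjusted p = 0.00881), with an adjusted p of 0.0538 without block R1. The other 13 measured members of the retinoid and atrial list did not pass, among them CYP26A1, the enzyme that degrades retinoic acid (−0.28 ± 0.46, adjusted p = 0.77), and the list's median was 0.29.

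Genes of sterol and fatty acid synthesis fell across most of their list. Of 22 measured, 14 fell and all 22 fold changes were negative, with a median of −1.043 beside −0.03 over all genes. Among all 13797 genes, 359 fell and 7187 had a negative fold change. The list was chosen with earlier results of these data known, so these totals do not measure an enrichment. Their summed level was 5296 to 7815 CPM in the wild-type libraries and 2641 to 4462 CPM in the knockout libraries, with no overlap. MVD, which makes isopentenyl diphosphate, read 60.6 to 69.5 CPM (median 65.3) against 14.0 to 26.4 CPM (median 17.05), a 3.74-fold difference (log2 −1.90 ± 0.19, adjusted p = 1.12e-08). HMGCS1, which makes HMG-CoA, read 781 to 1158 CPM (median 947) against 269 to 654 CPM (median 361) (−1.30 ± 0.21, adjusted p = 1.10e-04).

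FDFT1, squalene synthase and the first step committed to sterols, read 447 to 512 CPM (median 458) against 193 to 264 CPM (median 217) (−1.15 ± 0.15, adjusted p = 2.96e-06). FDPS, which makes farnesyl diphosphate, and DHCR7, which performs the last step to cholesterol, fell by 1.044 and 1.27 on the log2 scale (adjusted p = 9.81e-05 and 6.97e-05). In each of the 5 genes named here all knockout libraries lay below all wild-type libraries. The list had 11 lower calls without block R1, 13 in the third block alone, 9 with counts summed by line and 3 with cl4 as the only knockout clone. Its summed level averaged 7351 CPM in wild type and 4462 CPM in the knockout in block R1, 6067 and 3816 in R2, and 5883 and 2918 in the third.

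Nuclear-encoded genes of the respiratory chain had small negative fold changes. All 33 measured had a negative fold change, with a median of −0.65, 8 fell and none rose. Among all 13797 genes, 7187 had a negative fold change, 359 fell and the median was −0.03. This list was also chosen with earlier results known. CYCS, cytochrome c, read 185 to 300.5 CPM (median 271) against 109 to 239.5 CPM (median 143) (−0.78 ± 0.20, adjusted p = 0.0212), and NDUFV1, a core subunit of complex I, 112 to 181 CPM (median 140.3) against 59.6 to 104 CPM (median 92.7) with no overlap (−0.77 ± 0.18, adjusted p = 0.00881). UQCRC1 of complex III and COX5B and COX4I1 of complex IV changed by −0.76 ± 0.18, −0.54 ± 0.14 and −0.63 ± 0.17 (adjusted p = 0.0105, 0.0225 and 0.0268). Of the citric acid cycle and fatty acid oxidation list 5 of 22 fell and none rose (median −0.55), among them IDH2 (−1.02 ± 0.23, adjusted p = 0.00551) and HADHB, of the mitochondrial trifunctional protein (−0.87 ± 0.19, adjusted p = 0.00565).

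These calls rested on few libraries. Without block R1, 1 respiratory and 1 citric acid cycle gene passed, and without cl43_WT_UT 17 and 7. Leaving out single libraries gave adjusted p values of 0.0533 to 0.081 for CYCS (WT_R1, WT_TU_R1, cl14_R1, cl46_R1 and cl51_R1), 0.0638 for UQCRC1 (WT_R1), 0.0521 to 0.0894 for COX5B (WT_R1, WT_TU_R2, cl14_R1, cl46_R1 and cl51_R1) and 0.0682 to 0.133 for COX4I1 (WT_R1, WT_TU_R1, cl4_R3, cl46_R1 and cl51_R1). The summed respiratory chain level averaged 13772 CPM in wild type and 9203 in the knockout in R1, 9035 and 8139 in R2, and 6988 and 5440.1 in the third block, so that it also differed between blocks within each genotype. Beside these, the mitochondrially encoded share was higher in the knockout in R1 (0.170% against 0.118% and 0.135%) and lower in R2 (0.380% against 0.5259% and 0.548%) and in the third block (0.257% to 0.408% against 0.498% and 0.520%), and its part in the result was not tested.

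**Figure D3:**
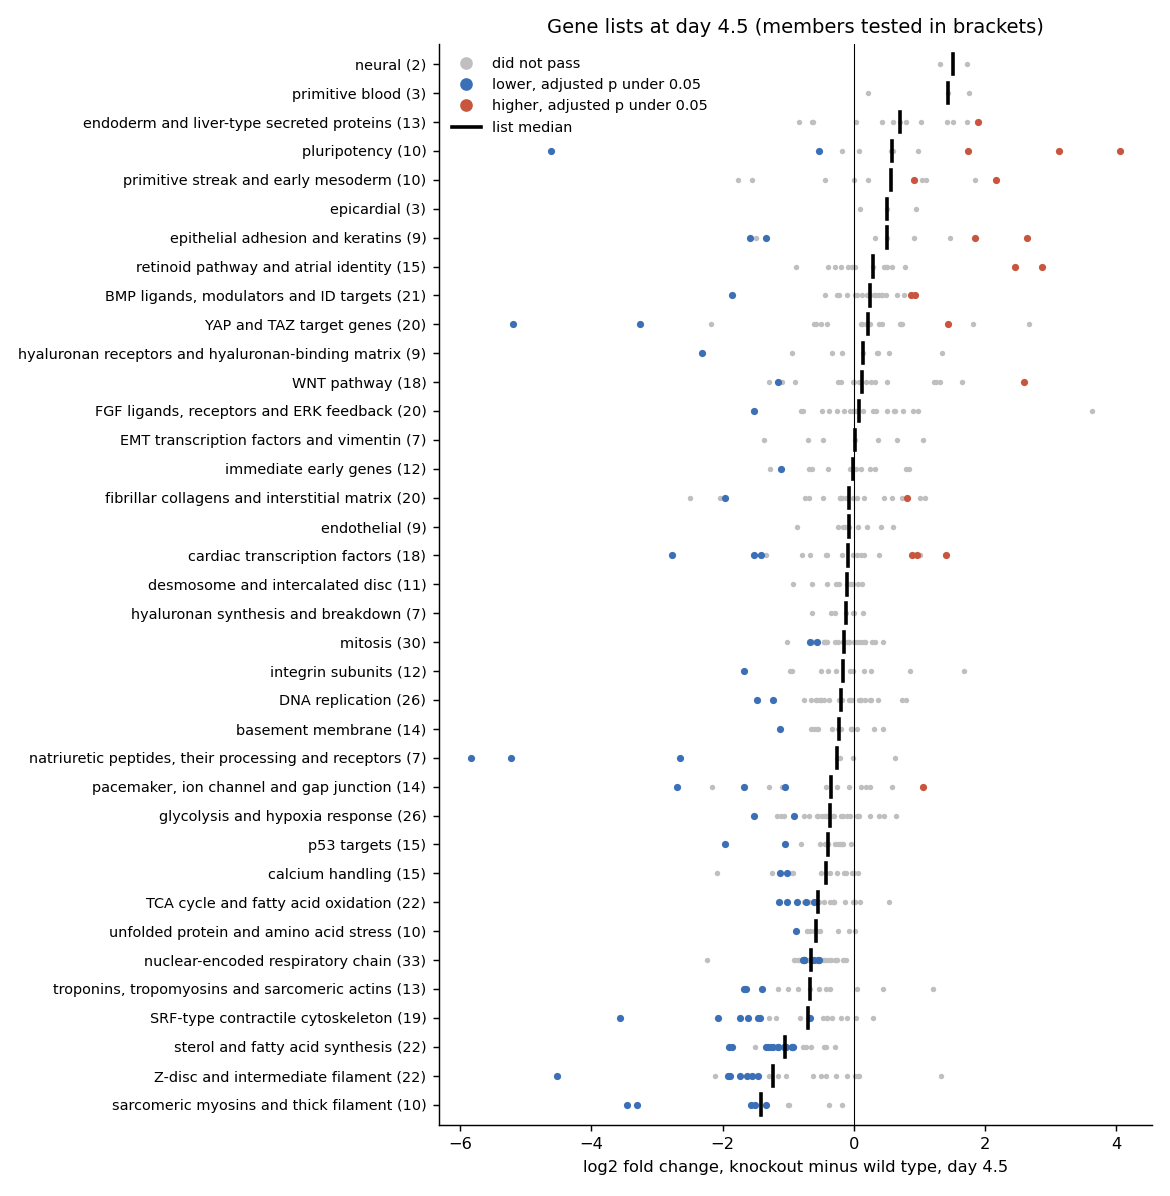
Log2 fold change of knockout over wild type at day 4.5 (horizontal axis) for the measured members of each gene list (rows), 1 point per gene, with genes called lower in blue, genes called higher in red, other genes in grey and the list median as a black bar. Sterol genes lie below 0 in all 22 members and respiratory chain genes in all 33, while the YAP target list spreads to both sides of 0.

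Matrix genes other than those of hyaluronan mostly did not pass, with COL2A1 as the clearest exception. COL2A1, the fibrillar collagen of cartilage that embryonic heart tissue also makes, read 314 to 690.2 CPM (median 446) in wild type and 104 to 146 CPM (median 126) in the knockout. No library overlapped, and the level was 3.90-fold lower (log2 −1.96 ± 0.20, adjusted p = 1.37e-08). FN1, fibronectin, was the 1 gene of the 20 interstitial matrix genes that rose, at 1728 to 5797 CPM (median 3589) against 5127 to 7894 CPM (median 6839) (0.81 ± 0.23, adjusted p = 0.0405), a call lost on leaving out any of 8 libraries (WT_R1, WT_TU_R1, WT_R2, WT_TU_R2, cl4_R3, cl14_R1, cl46_R1 and cl51_R1; adjusted p = 0.0551 to 0.102). COL1A1 did not pass (−0.47 ± 0.30, adjusted p = 0.402).

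Of 9 measured epithelial genes 2 keratins fell and 2 adhesion genes rose. KRT18 and KRT8, the paired keratins of simple epithelia and early heart muscle, read 456 to 818 CPM (median 739) and 322 to 699 CPM (median 370.1) in wild type. In the knockout they read 147 to 391 CPM (median 236) and 125 to 249.6 CPM (median 183), with no overlap for either (−1.58 ± 0.20 and −1.34 ± 0.26, adjusted p = 2.35e-06 and 0.00136). KRT8 was not called without block R1 (adjusted p = 0.0794), and because the genes lie side by side on opposite strands their reads may be shared. EPCAM, an epithelial adhesion molecule, rose, at 2.50 to 11.9 CPM (median 7.30) against 20.5 to 29.9 CPM (median 29.1) (1.85 ± 0.34, adjusted p = 7.22e-04), and CDH1, E-cadherin, went from a median of 0.781 to 7.13 CPM (2.64 ± 0.63, adjusted p = 0.0112, and 0.0781 without cl51_R1). CDH2, the cadherin of heart muscle, did not pass (−0.42 ± 0.19, adjusted p = 0.216). The 5 other measured genes of the 9 on this list did not pass.

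Of the 157 genes that rose, 19 (12.1%) belonged to any of the lists, beside 83 of the 359 lower genes (23.1%) and 3.96% of all genes tested. Because the lists were chosen with earlier results of these data known, these shares do not measure an enrichment. ADAMTS8, a secreted metalloprotease, read 7.51 to 21.5 CPM (median 16.3) in wild type and 95.5 to 199 CPM (median 117) in the knockout, far apart (2.88 ± 0.30, adjusted p = 2.37e-08). STC1, a secreted glycoprotein first known for calcium and phosphate balance, read 3.12 to 14.4 CPM (median 6.88) against 21.3 to 78.2 CPM (median 53.6) (2.72 ± 0.33, adjusted p = 8.03e-07). SFRP5, a secreted WNT antagonist, read 11.3 to 20.5 CPM (median 18.7) against 31.8 to 215 CPM (median 87.6) (2.60 ± 0.37, adjusted p = 1.15e-05). All 3 kept their calls in every alternative that was tried.

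ANGPT1, the ligand with which heart muscle signals to the TIE2 receptor of endothelium, rose, at 10.4 to 48.5 CPM (median 30.8) against 57.9 to 212 CPM (median 172), with no overlap (2.36 ± 0.40, adjusted p = 2.31e-04). FOXC1, a forkhead factor of mesoderm, went from a median of 6.002 to 33.5 CPM (2.17 ± 0.31, adjusted p = 1.84e-05), and TFAP2A, a factor of neural crest and surface ectoderm, from 2.31 to 8.40 (2.38 ± 0.49, adjusted p = 0.00292). FLRT3, a cell adhesion receptor, CTNNA2, the neural alpha-catenin, and APCDD1L rose by 2.15, 2.36 and 2.67 on the log2 scale (adjusted p = 9.51e-04, 4.33e-04 and 0.00179). KIAA2012 rose by 2.20 (adjusted p = 0.00925), and was not called without block R1 (0.0884), in the third block alone (0.236), without cl4 (0.0521) or with cl4 only (0.0806). DHRS9, a dehydrogenase that can oxidise retinoids, was at the floor in wild type and reached 34.7 CPM in the knockout, at least 7.09-fold higher (adjusted p = 0.0157, and 0.0522 without WT_R1). It was also not called without block R1 (0.0585), in the third block alone (0.148), in DESeq2 (0.227) or with the replicate block as a covariate (0.0559). SHISA2, which holds back WNT and FGF receptors, and APELA, a ligand of the apelin receptor, did not overlap between groups and passed narrowly (adjusted p = 0.0405 and 0.0475), and leaving out any of 8 libraries (WT_R1, WT_TU_R1, WT_R2, WT_TU_R2, cl4_R3, cl46_R1, cl51_R1 and TNT2) for SHISA2 or 11 for APELA (all but cl4_R1) put the adjusted p at 0.0543 to 0.108 and 0.0538 to 0.126.

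Of the signalling lists, few members passed. In the BMP list 2 of 21 genes rose, BMPER, a secreted BMP-binding regulator (57.6 to 86.4 CPM (median 80.1) against 125 to 189 CPM (median 145), 0.93 ± 0.16, adjusted p = 2.71e-04), and the ligand BMP5 (0.88 ± 0.19, adjusted p = 0.00659). The antagonist NOG fell from a median of 10.0 to 3.12 CPM (−1.86 ± 0.52, adjusted p = 0.0347), with adjusted p values of 0.0566 to 0.119 on leaving out any of 8 libraries (WT_R1, WT_TU_R1, WT_TU_R2, cl4_R2, cl4_R3, cl14_R1, cl46_R1 and cl51_R1). BMP4 and the target ID1 did not pass (0.02 ± 0.28 and 0.34 ± 0.29, adjusted p = 0.978 and 0.535). In the WNT list of 18, SFRP5 rose and the ligand WNT2 fell, at 119.97 to 164 CPM (median 144) against 38.8 to 117 CPM (median 54.5) with no overlap (−1.15 ± 0.24, adjusted p = 0.00508), and the targets AXIN2 and LEF1 did not pass (0.26 ± 0.43 and 0.33 ± 0.28, adjusted p = 0.771 and 0.538). In the FGF and ERK list 1 of 20 fell, the ERK phosphatase DUSP5 (−1.53 ± 0.45, adjusted p = 0.047), which was not called on leaving out any of 8 libraries (WT_R1, WT_TU_R1, WT_TU_R2, cl4_R2, cl4_R3, cl14_R1, cl46_R1 and cl51_R1; adjusted p = 0.0506 to 0.225), and DUSP6 did not pass (−0.15 ± 0.31, adjusted p = 0.8291).

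Markers of other cell types were at low summed levels in both genotypes. Endothelial genes summed to 76.2 to 274 CPM in wild type and 94.0 to 205 CPM in the knockout, with 0 of 9 measured called in edgeR, 0 in DESeq2 and 0 at an unadjusted p under 0.05, and with SOX18 at 0 in all 12 libraries. Epicardial genes summed to 4.38 to 27.0 and 4.06 to 28.95 CPM (0 of 3 called by either tool, 0 at an unadjusted p under 0.05, UPK1B at 0), neural genes to 3.44 to 11.6 and 11.0 to 26.2 (0 of 2 called by either tool, 2 at an unadjusted p under 0.05, PAX6, SOX1 and TUBB3 at 0), and blood genes to 1.30 to 19.1 and 3.05 to 25.6 (0 of 3 called in edgeR, 1 in DESeq2 and 1 at an unadjusted p under 0.05, GATA1 and PTPRC at 0). For scale, 2631 of all 13797 genes tested had an unadjusted p under 0.05. Most members of these 4 lists were under the filter on low counts.

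Endoderm, pluripotency and early mesoderm genes had positive median fold changes. Of 13 endoderm genes 1 rose, FOXA3 (1.89 ± 0.50, adjusted p = 0.0251; 0.062 to 0.0919 on leaving out WT_R1, WT_TU_R1, cl4_R3 and cl51_R1 in turn), the median was 0.70 and their sum was 47.5 to 154 CPM in wild type and 82.9 to 206 in the knockout. The defining endoderm genes SOX17, FOXA2 and AFP did not pass, FOXA2 at 0 to 11.5 CPM (median 3.79) against 8.69 to 22.9 CPM (median 12.3) (1.51 ± 0.67, adjusted p = 0.207). Of 10 primitive streak and early mesoderm genes 2 rose, FOXC1 and LHX1 (0.91 ± 0.22, adjusted p = 0.0132, and 0.0566 without WT_R1), with sums of 60.1 to 179.95 and 145 to 278 CPM and TBXT at 0 in every library. Of 10 pluripotency genes 3 rose (L1TD1, ZFP42 and NANOG) and 2 fell (TDGF1 and DNMT3B). Without block R1 none of the 3 higher genes passed (0.168, 0.0807 and 0.363). Leaving out single libraries gave adjusted p values of 0.0543 for L1TD1 (cl51_R1), 0.0742 to 0.0997 for ZFP42 (WT_TU_R1, cl46_R1 and cl51_R1), 0.0672 to 0.0797 for NANOG (WT_R1, WT_TU_R1, cl4_R1 and cl4_R3) and 0.0566 to 0.106 for DNMT3B (cl4_R1, WT_TU_R2, cl4_R2, cl4_R3, cl43_WT_UT, cl46_R1, cl51_R1 and TNT2). NANOG was at or under 3.05 CPM in every library and POU5F1 at or under 3.55 CPM (0.57 ± 0.62, adjusted p = 0.639). TDGF1, a NODAL co-receptor also made by early heart tissue, was at most 0.611 CPM in the knockout beside 2.64 to 7.50 CPM (median 6.60) in wild type, at least 3.29-fold lower (adjusted p = 2.17e-04). The part these cell types play in the lower muscle genes was not tested.

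**Figure D4:**
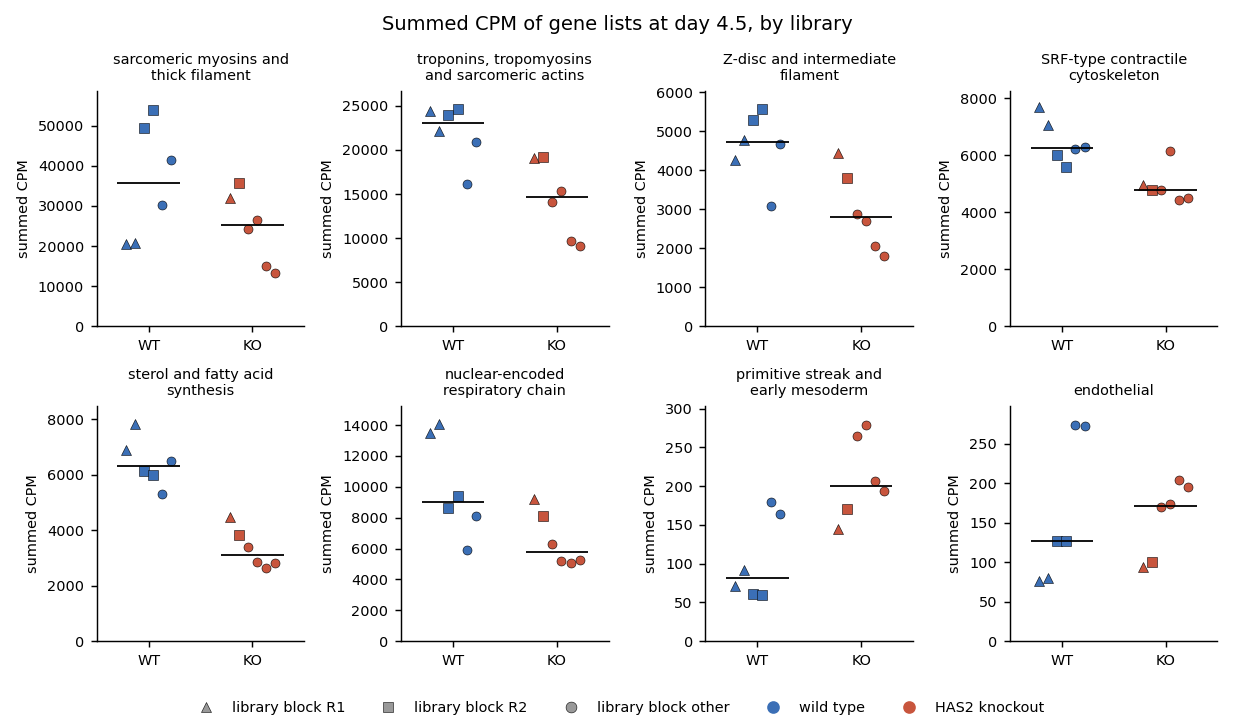
Summed CPM (vertical axis, linear) of 8 gene lists in each of the 12 day 4.5 libraries, with wild type in blue, knockout in red, marker shapes for the blocks and lines at the group medians. Sterol and fatty acid synthesis genes in the knockout libraries, 2641 to 4462 CPM, all lie below the wild-type libraries, 5296 to 7815 CPM.

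Clone cl4 gave 3 of the 6 knockout libraries. Of the 516 called genes, 52 were called both with cl4 as the only knockout clone and with cl4 left out, 2 comparisons that share the 6 wild-type libraries. Without cl4 564 genes passed, and with cl4 alone, which leaves 3 libraries of 1 clone, 67. Leaving out cl4 also leaves 3 knockout libraries, all of the third block, whereas those of cl4 were spread over all 3 blocks. Clone and block therefore cannot be told apart here. In the named genes that passed, 18 of 111 kept their call under every alternative that gave a value, ANKRD1, TAGLN, MYL7, MYOZ2, POPDC2, DERL3, ANXA2, COL2A1, MVD, FDFT1, FDPS, KRT18, EPCAM, FOXC1, NR2F2, SFRP5, STC1 and ADAMTS8, and none changed direction. Beside the losses given with each gene, IRX4, CORIN, FHL2, CNN1, ACTC1, TMOD1, KCNJ5, IDH2, HADHB, NDUFV1, FOXA3, LHX1 and FN1 were not called without block R1 (adjusted p = 0.0534 to 0.271). Of the 18, ANXA2, a membrane-binding protein linked to actin, had the smallest adjusted p, reading 50.1 to 112 CPM (median 75.7) in wild type and 12.8 to 23.2 CPM (median 17.6) in the knockout (−2.26 ± 0.19, adjusted p = 1.60e-10).

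The knockout libraries lay beyond the wild-type libraries of their own block, in all 3 blocks, in 994 genes (7.2%), 479 lower (3.47%) and 515 higher (3.73%). MYL7 averaged 4325 CPM in wild type and 789 in the knockout in R1, 4627 and 545 in R2, and 3134 and 237 in the third. ANKRD1 averaged 330.1 and 24.9, 571 and 11.6, and 787 and 14.7 CPM in the same order. Of all called genes, 220 lower and 110 higher were of this kind. Summed thick filament genes did not follow: they were higher in the knockout in R1 (32047 against 20604 CPM) and lower in R2 (35764 against 51666) and in the third block (19709 against 35833). That sum includes TTN, which was low in WT_R1 and WT_TU_R1. Gene by gene, 7 of the 10 measured members were below the wild-type libraries of their block in all 3 blocks. In R1, MYH6 averaged 7201 CPM in wild type and 5506 CPM in the knockout.

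Earlier and later days show when these differences were present. At day 2.5, 137 genes (0.993%) were called, and of the day 4.5 set 6 higher and 16 lower genes were among them. At day 7.5, with 3 libraries per genotype, 48 genes (0.348%) were called, 3 of them from the higher and 6 from the lower day 4.5 set, and 308 of the 359 lower and 124 of the 157 higher genes had the same sign as at day 4.5. The share of all tested genes with the same sign on both days was not computed, so these sign counts have no background. The wild-type libraries of day 7.5 came from blocks R1 and R2 and the knockout libraries from R2 and the third block. The knockout effect itself differed between days 4.5 and 2.5 in 84 genes (0.609%) and between days 7.5 and 4.5 in 22 (0.159%), and in 318 and 129, these genes included, with block as a covariate.

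The 5 genes with the smallest p for a difference from day 2.5 were all called at day 4.5. TAGLN was −0.44 ± 0.29 at day 2.5 (adjusted p = 0.606), a difference between days of −3.12 ± 0.44 (adjusted p = 5.54e-05), and ANXA2 was −0.13 ± 0.17, a difference of −2.13 ± 0.25 (adjusted p = 3.40e-06). ADAMTS8 and STC1 differed by 3.72 ± 0.52 and 3.08 ± 0.43 in the other direction (adjusted p = 5.54e-05 and 5.54e-05), as did PRTG, the immunoglobulin-family protein protogenin, at 1.21 ± 0.18 (adjusted p = 1.58e-04). PRTG read 481 to 711 CPM (median 509) against 948 to 1151 CPM (median 988) at day 4.5. MYL7 was already lower at day 2.5 (−1.81 ± 0.42, adjusted p = 0.0186), as were TNNT2 (−3.95, adjusted p = 0.00662) and MYH6 (−4.26, adjusted p = 0.0213), which then averaged only 4.13 and 3.33 CPM in wild type.

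At day 7.5 the sarcomere lists had medians of −0.23 for thick, −0.15 for thin filament and −0.23 for Z-disc genes, and TNNT2 and MYH6 were at −0.12 ± 0.46 and −0.07 ± 0.49. ANXA2 (−1.74 ± 0.27, adjusted p = 1.05e-04) and COL2A1 (−1.44 ± 0.28, adjusted p = 0.00399) were still lower. The 5 genes with the smallest p for a difference between days 7.5 and 4.5 were genes of cell division or the cell cycle, with a more negative knockout effect at day 7.5. CCNA2, cyclin A2, was at −0.67 ± 0.16 at day 4.5 and −3.01 ± 0.30 at day 7.5, a difference of −2.34 ± 0.34 (adjusted p = 3.45e-04), and KIF2C, DEPDC1, ARHGAP11A and CCND2 differed by −2.75, −2.90, −2.62 and −1.73 (adjusted p = 0.00118, 0.00118, 0.00118 and 0.00118).

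Treatment with hyaluronidase, an enzyme that breaks down hyaluronan, gives another view at the same day, although hyaluronan itself was not measured here. Cardioids of the lines labelled TNNI1, WT and TNNT2, none of them a HAS2 knockout by label, were given hyaluronidase from day 1.5 (3 libraries) and compared with untreated ones of the same lines (3 libraries), none of them shared with the knockout comparison. The libraries were separate, but the line label WT occurs in both comparisons. The library names also give the TNNT2 line as TNT2, a line name of the knockout comparison. Hyaluronidase from day 1.5 changed 443 of 12748 genes (3.48%), and treatment from day 2.5 changed 28 (0.22%). With line as a replicate block, added after seeing the data, the counts were 585 and 55. Of the 496 knockout-called genes tested in both, 138 were called in the same direction with early enzyme, which is 27.8% of the knockout set and 31.6% of the 437 enzyme-called genes tested in both. Of the 356 genes lower in the knockout, 117 were also called lower with enzyme and 0 higher, and of the 140 higher genes 21 were called higher and 3 lower (NR2F2, MOXD1 and CACNA1D). With enzyme, 8 of 10 thick filament, 7 of 13 thin filament, 10 of 21 Z-disc, 10 of 19 serum response factor and 16 of 22 sterol genes were called lower. Of all 12566 genes tested in both, 306 were called lower with enzyme and 131 higher.

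The effects of enzyme and knockout on MYL7 and MYH6 differed. MYL7 changed by −6.78 ± 0.85 with enzyme (adjusted p = 1.93e-04) and by −3.45 ± 0.42 in the knockout, a difference of 3.33 ± 0.76 (adjusted p = 0.0275), and MYH6 by −3.78 ± 0.68 and −0.98 ± 0.35, a difference of 2.83 ± 0.66 (adjusted p = 0.0331). TAGLN (−3.51 ± 0.45 with enzyme), ANXA2 (−2.41 ± 0.43) and COL2A1 (−2.70 ± 0.49) were also lower with enzyme, with differences between the effects of knockout and enzyme of −0.01 ± 0.60, 0.18 ± 0.42 and 0.77 ± 0.44 that did not pass (adjusted p = 1, 0.97 and 0.815). In all, 38 genes (0.271%) had an effect that differed, 35 of them more positive in the knockout, and 111, these included, with block and line as a covariate. NR2F2 was lower with enzyme (−2.998 ± 0.60) and higher in the knockout, a difference of 5.48 ± 0.77 (adjusted p = 2.34e-05). IGFBP3, ANGPT1 and CACNA1D differed by 3.85 ± 0.72, 3.71 ± 0.70 and 2.97 ± 0.55 (adjusted p = 0.00485, 0.00485 and 0.00485). MOXD1, a copper-dependent monooxygenase homologue, was at 0 in all enzyme-treated libraries, so its fitted difference is no bound, and it read 0 to 3.30 CPM (median 1.34) in wild type and 5.08 to 12.8 CPM (median 9.52) in the knockout.

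**Figure D5:**
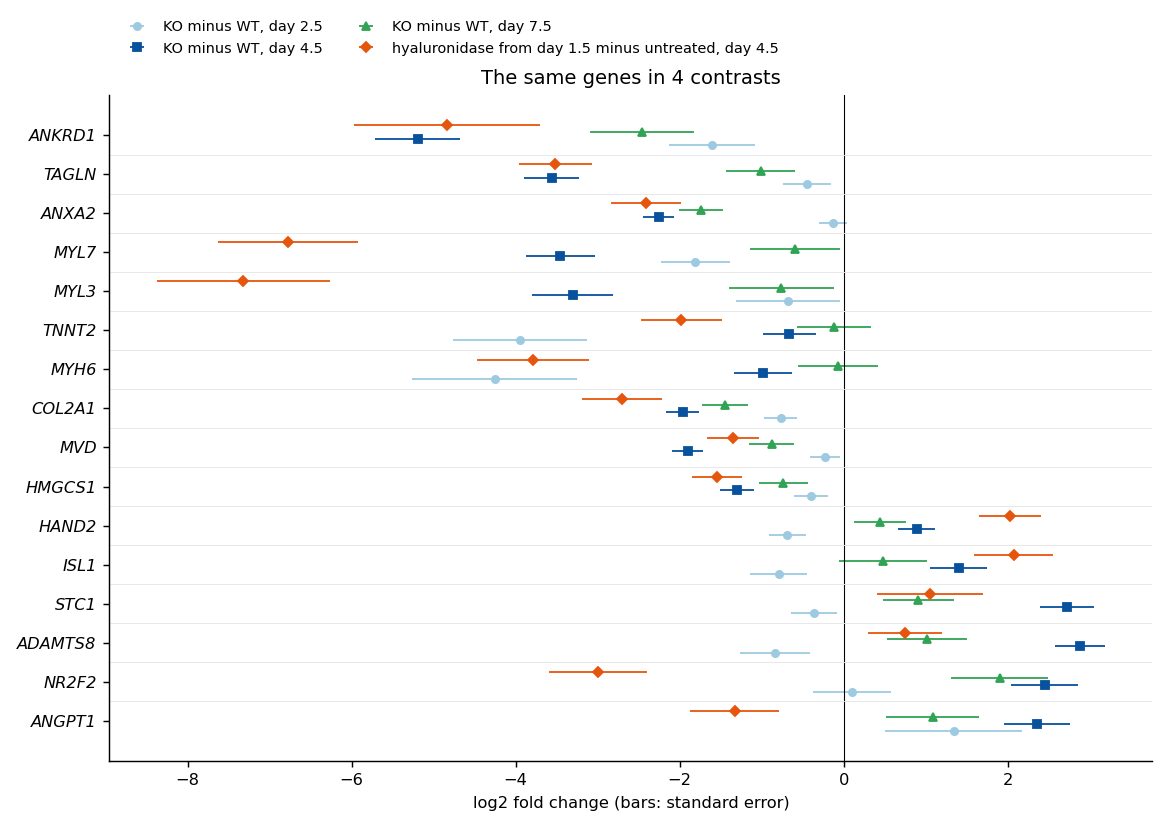
Log2 fold change (horizontal axis) of 16 genes (rows) in 4 contrasts, knockout minus wild type at days 2.5, 4.5 and 7.5 and early hyaluronidase minus untreated at day 4.5, with bars of 1 standard error. MYL7 and MYH6 lie further below 0 with enzyme than in the knockout at day 4.5, and NR2F2 lies on opposite sides of 0 in the 2 day 4.5 contrasts.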

How the data were processed

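Libraries were made with the QuantSeq 3′ FWD kit from 8 pooled cardioids each and sequenced single-end, per the labels. The deposited table holds raw counts per gene. The authors counted reads with featureCounts from Subread 1.6.2, per the submitters' processing notes, which also name hg38. The aligner and strand setting were not given in the sources used here. The table lists 58735 gene IDs, all found in GENCODE 29. Of these, 58207 took a current symbol from a separate gene name reference, and the rest kept the GENCODE name. In the table, 4 columns belong to no sample listed here and were not used.

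Counts were fitted with edgeR 4.0.16 (quasi-likelihood F-test, TMM scaling, filterByExpr with a minimum count of 10) in R 4.3.3 over the 41 genotype libraries with 1 mean per day and genotype, and p-values were adjusted over all genes tested by Benjamini-Hochberg with a threshold of 0.05. Printed CPM values use each library's total counts without TMM scaling, and intervals are 95%. Hyaluronidase and untreated libraries were fitted separately (24 libraries), and the difference of effects over all 65. Gene names followed a rule: HAS2, the 15 highest and 15 lowest fold changes among called genes with at least 10 CPM, up to 6 passed members and the defining genes of each of 37 lists, and 5 genes for each of 3 tests of a difference between effects. A few other members are named with their levels because a result turned on them. The members and lists were chosen with earlier results of these data known. Groups at or under 3 counts per library were taken as at the floor.

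Depth was 1404837 to 3201280 counts per library at day 4.5. Replicates differed beyond counting noise (chi-square per degree of freedom 2.20 to 43.7), so none was a repeat of another library. Alternatives were RLE scaling, no filter, DESeq2 1.42.0, day 4.5 libraries alone, a replicate block (R1, R2 and the third), the third block alone, counts summed by line, clone subsets, each library left out and, for the enzyme arm, line as a replicate block. Promoters came from RefSeq (GRCh38.p14).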

Additional observations from a re-analysis of the deposited data

Results flagged for a closer look

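Single libraries stood far from the other 5 of their group in 16 of 270 groups of 6 values, where chance gives about 1 in 20, or 13.5. In wild type the far library was most often cl43_WT_UT, which was lowest for TAGLN (59.3 CPM), MYL7 (1693), MYL3 (214), POPDC2 (19.8), MYH6 (4602) and the summed citric acid cycle and fatty acid oxidation list (2019.7), and highest for SNAI2, an epithelial-mesenchymal transition factor (9.23). EGR1, an immediate early gene, was highest in WT_TU_R1 (61.9 CPM) and ADAMTS8 lowest in WT_TU_R2 (7.51). In the knockout, cl14_R1 was lowest for DUSP6 (339.5 CPM) and highest for ADAMTS8 (199) and the summed serum response factor list (6137). MYH7 was lowest in cl51_R1 (4.05 CPM), EPCAM lowest in cl46_R1 (20.5), APELA highest in cl4_R3 (28.9) and NDUFS1, of complex I, highest in cl4_R2 (192).

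The knockout effect differed between groups by a test of the difference in 41 cases among the named genes, given here as differences in log2 fold change. Against day 2.5 these were ANXA2 (−2.13), TAGLN (−3.12), STC1 (3.08), ADAMTS8 (3.72), PRTG (1.21), MVD (−1.68), CORIN (−6.15), BMP5 (1.59), FLRT3 (2.87), CDKN1A (−2.48), ANKRD1 (−3.59), HAND2 (1.58), BMPER (1.11), IGFBP3 (2.99), TDGF1 (−4.30), SFRP5 (2.29), MEF2C (1.96), ISL1 (2.19), TBX5 (2.05), FDFT1 (−0.90), COL2A1 (−1.19) and FDXR (−1.72). From day 4.5 to day 7.5 they were CCNA2 (−2.34), KIF2C (−2.75), ARHGAP11A (−2.62), DEPDC1 (−2.90), CCND2 (−1.73), FDXR (2.34), TAGLN (2.55) and EGR1 (−3.08). Against early hyaluronidase they were NR2F2 (5.48), MOXD1 (9.98), CACNA1D (2.97), IGFBP3 (3.85), ANGPT1 (3.71), LAMA1 (2.34), MYOM1 (3.47), MYL7 (3.33), MYH6 (2.83), TNNC1 (3.34) and LHX1 (−2.24), where MOXD1 was at 0 in every enzyme-treated library.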

How the results depend on the processing

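The count of 516 called genes kept within 1.5 times with RLE scaling (475) and without clone cl4 (564). It was 254 without a filter, 782 with DESeq2, 212 with the 12 day 4.5 libraries alone, 158 in the third block alone, 64 with counts summed by line, 67 with cl4 as the only clone and 178 without block R1, the last chosen after seeing the data. Higher genes numbered 89, 281, 73, 44, 23, 28 and 50 under the same 7 settings, and lower genes 165 without a filter, 139 in the 12 libraries, 114 in the third block, 41 by line, 39 with cl4 only and 128 without block R1. Leaving out 1 library gave 241 to 899 calls, 73 to 302 higher and 166 to 597 lower. For the 84 genes that differed from day 2.5, DESeq2 gave 196, leaving out cl4 153, cl4 only 26 and single libraries 43 to 143. For the 22 from day 4.5 to 7.5 the values, in that order, were 35, 53, 8 and 16 to 28. For the 38 against hyaluronidase, no filter gave 156, DESeq2 68, no cl4 24, no block R1 19 and single libraries 20 to 47. The causes of these changes were not tested. No named gene that passed changed direction.

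The replicate block (R1, R2 and the third) gave 829 calls, 318 of them higher, and 318, 129 and 111 genes for the tests against day 2.5, day 7.5 and hyaluronidase. Of 111 named genes, 2 (HCN4 and DHRS9) lost their call with it. In the enzyme arm, line as a block gave 585 calls in place of 443 and 55 in place of 28. Deviations of same-block wild-type and knockout libraries correlated at 0.0197 to 0.374 over 12 pairs, and those of different blocks at −0.457 to 0.136 over 24, so not every same-block pair passed the 0.1 set for pairing, and the libraries were not treated as paired. Each of the 12 libraries correlated best with a library of its own block in the other genotype, a hint from the data and not from the design. Of the named genes that passed, 68 lost the call by line, 70 in the third block, 52 without block R1, 21 without cl4 and 79 with cl4 only. At this depth, genes near 3 counts per library allow only bounds.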

Other observations

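Few genes passed in cell cycle, stress and metabolic lists outside the comparisons above. Of 30 mitosis genes 2 fell (CCNA2 and CDK1) and none rose (median −0.15), with MKI67 at 51.2 to 318 CPM (median 246) in wild type and 146 to 305 CPM (median 266) in the knockout (0.17 ± 0.41, adjusted p = 0.847). Of 26 S phase genes 2 fell, E2F1 (−1.48 ± 0.40, adjusted p = 0.0277) and TYMS, thymidylate synthase (−1.23 ± 0.35, adjusted p = 0.0396). E2F1 was not called without any of WT_R1, WT_TU_R1, cl4_R3, cl14_R1 and cl46_R1 (adjusted p = 0.0563 to 0.166). TYMS was not called without any of 8 libraries (WT_R1, WT_TU_R1, cl4_R1, WT_TU_R2, cl4_R2, cl4_R3, cl14_R1 and cl51_R1; 0.0564 to 0.141), and CDK1 (−0.56 ± 0.17, adjusted p = 0.0467) without any of 10 (0.0538 to 0.119). Of 26 glycolysis and hypoxia genes 2 fell, with PFKP, phosphofructokinase of platelets, at −1.52 ± 0.31 (adjusted p = 0.00251, and 0.149 without block R1) and VEGFA at 0.07 ± 0.20 (adjusted p = 0.879).

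All 15 measured p53 pathway genes had a negative fold change (median −0.40), and 2 fell. Among all 13797 genes, 7187 had a negative fold change (median −0.03), and 359 fell. CDKN1A, the cyclin-dependent kinase inhibitor p21, read 7.81 to 18.2 CPM (median 13.9) in wild type and 1.62 to 5.21 CPM (median 3.86) in the knockout, with no overlap (−1.96 ± 0.35, adjusted p = 5.38e-04, and 0.00785 without block R1), while MDM2 did not pass (−0.40 ± 0.18, adjusted p = 0.209). Of 10 genes of endoplasmic reticulum and amino acid stress 1 fell, PHGDH, the first enzyme of serine synthesis (−0.89 ± 0.19, adjusted p = 0.00438, and 0.0889 without block R1), and the chaperone HSPA5 was at 0.02 ± 0.14 (adjusted p = 0.948). Of 12 immediate early genes 1 fell, IER3 (−1.11 ± 0.30, adjusted p = 0.0315; 0.0619 to 0.115 on leaving out WT_R1, WT_TU_R1, cl4_R2, cl46_R1 and cl51_R1 in turn).

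Of 14 basement membrane genes 1 fell, HSPG2, perlecan (−1.12 ± 0.29, adjusted p = 0.0191; 0.0542 to 0.072 without any of WT_R1, WT_TU_R1, cl46_R1 and cl51_R1), and LAMA1 was at 0.45 ± 0.29 (adjusted p = 0.4). Of 12 integrins 1 fell, the laminin receptor subunit ITGA6, at 23.1 to 93.3 CPM (median 53.7) against 6.37 to 32.4 CPM (median 18.0) (−1.67 ± 0.37, adjusted p = 0.00578). None of 11 desmosome and adherens genes and none of 7 epithelial-mesenchymal transition genes passed in edgeR or DESeq2 (3 and 1 at an unadjusted p under 0.05, beside 2631 of all 13797 genes), although TWIST1 passed with block as a covariate (1.08 ± 0.31, adjusted p = 0.0293), with DSP at 0.12 ± 0.31 and VIM at 0.02 ± 0.21 (adjusted p = 0.862 and 0.975).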
